A study of Mus musculus with 6 samples.

Results

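Nonsense-mediated decay is the pathway that removes mRNAs whose stop codon lies too early. Here 8 of its factors were looked for in liver of mice with and without deletion of the splicing factor gene Srsf3 in hepatocytes. The members were every probe set that the array annotation assigns to exactly 1 of the symbols Upf1, Upf2, Upf3a, Upf3b, Smg1, Smg5, Smg6 and Smg9. Probe sets were found for 3 of the 8 genes, with 31 for Upf1, 32 for Smg6 and 17 for Smg9, or 80 of the 229581 probe sets on the array. Those of Smg9 stand in the annotation under its older symbol 1500002O20Rik. Upf2, Upf3a, Upf3b, Smg1 and Smg5 were not analysed here.

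In this pathway a ribosome that stops upstream of an exon junction complex recruits UPF1, an RNA helicase that is switched on by phosphorylation. SMG9 is a regulatory partner of SMG1, the kinase that phosphorylates UPF1, and SMG6 is the endonuclease that binds phosphorylated UPF1 and cuts the mRNA near the stop codon. Alternative splicing that brings in an early stop codon feeds transcripts into the pathway, and mRNAs of several decay factors are themselves known targets of it.

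Liver RNA came from untreated mice aged 1 month, from 3 SRSF3HKO animals, in which Srsf3 was deleted in hepatocytes, and from 3 WT samples described as littermates of the same age. The driver of the deletion and the deleted part of the gene are not given in the sources used here. Each sample was hybridised to 1 Affymetrix mouse exon array, which carries several probe sets per gene, and for the WT group the labels leave unsaid whether the arrays are of 3 different mice. All values below are log2(intensity + 16) unless an intensity is named, every change is SRSF3HKO minus WT, and adjusted p-values are those of limma over all genes or probe sets tested. The gene level is the median over a gene's probe sets, and levels of different genes are not comparable because probe sets differ in brightness. The added 16 understates the changes of dim probe sets.

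Median intensity was 75.3 to 89.6 on the 6 arrays and lowest in WT replicate 2. The targeted gene Srsf3 had gene levels of 9.79, 9.24 and 9.35 in WT, against 10.30, 9.10 and 9.78 in SRSF3HKO. Of its 13 tested probe sets 10 had a positive change and 3 a negative one, from -1.03 to 1.68, with 6 called higher and none lower, and probe sets outside the deleted part check nothing. Signal of the Y-linked gene Eif2s3y was present on WT replicates 1 and 2 and SRSF3HKO replicate 3. Of 8 hepatocyte markers 6 were measured, with a summed intensity of 70031 to 72766 in WT and 61601 to 67104 in SRSF3HKO and none called. The 7 macrophage markers summed to 2306 to 2653 in WT, and to 16030, 2280 and 2837 in SRSF3HKO replicates 1, 2 and 3. Of these 7 the scavenger receptor gene Marco was called higher. The cholangiocyte markers summed to 494 to 704 in WT and 828 to 2982 in SRSF3HKO with none of 5 called, and the erythroid markers to 448 to 990 and 87.9 to 256 with 1 of 2 tested genes lower. For endothelial cells the sums were 1174 to 1575 in WT and 739 to 1359 in SRSF3HKO with 1 of 6 genes lower, and for stellate cells 879 to 1192 and 631 to 1340 with none of 6 called. The lymphocyte markers summed to 187 to 215 in WT and 121 to 449 in SRSF3HKO, and the neutrophil markers to 47.7 to 80.1 and 65.9 to 268, with none called. The lymphocyte genes Cd3g, Ms4a1 and Ncr1, the neutrophil gene Mpo and the erythroid genes Epb42 and Rhag were below the detection floor. In whole liver, fewer cells of a type and less RNA per cell cannot be told apart, and the part of these marker shifts in the values below was not tested.

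None of the 3 decay genes passed the limma test at gene level, against 11.9% of the 11711 genes tested, and 2 of them, Smg6 and Smg9, had an unadjusted p under 0.05 (0.0196 and 0.0350), which 17.6% of all genes tested reached upward. Smg6 and Smg9 had higher levels on every SRSF3HKO array than on any WT array, by about the same amount, whereas Upf1 had no common direction. Such a separation upward was seen for 21.6% of all genes tested, so 2 of 3 is a count too small to read against that share.

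**Figure D1:**
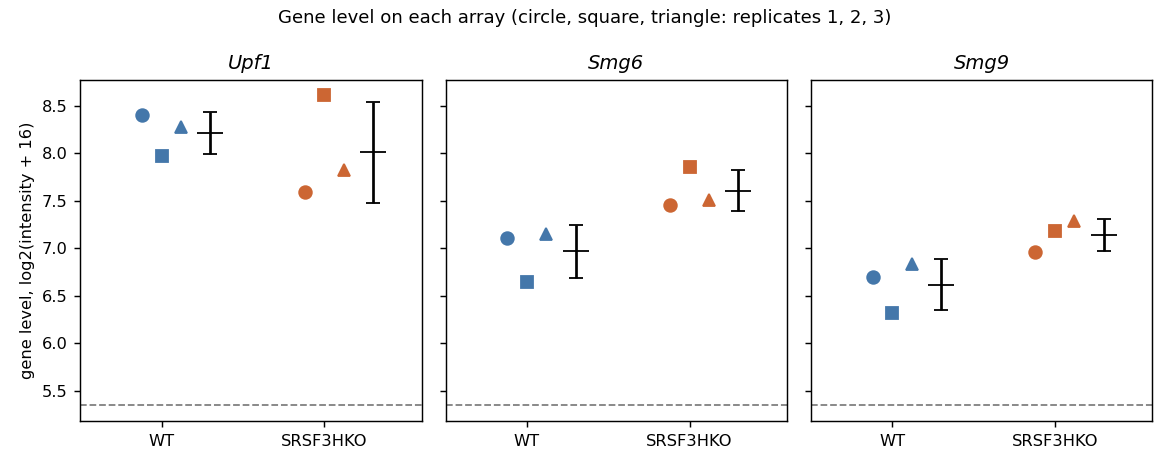
Gene levels of Upf1, Smg6 and Smg9, as log2(intensity + 16), on each of the 3 WT and 3 SRSF3HKO arrays, with the mean and SD (n = 3) beside the points and the detection floor of 5.35 dashed. The SRSF3HKO arrays lie above the WT arrays for Smg6 and Smg9, while for Upf1 SRSF3HKO replicate 2 is the highest of all arrays and the other SRSF3HKO arrays are the lowest.

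Smg6, the endonuclease gene, had levels of 7.10, 6.64 and 7.15 in WT, against 7.45, 7.86 and 7.51 in SRSF3HKO. The groups did not overlap, with WT replicate 2 the lowest array and SRSF3HKO replicate 2 the highest. The change was 0.64 ± 0.22 (SE, 3 arrays per group), or 1.56-fold, with a 95% confidence interval of 0.13 to 1.15 and a limma adjusted p of 0.0990. The 5 genes whose levels followed Smg6 most closely over the 6 arrays were Spint2, Mdm4, Pcgf6, Ddx50 and Zup1, with Pearson's r of 0.9958, 0.9944, 0.9941, 0.9939 and 0.9938. These are descriptions over 6 arrays that share the same group difference, and Pcgf6 (0.89 ± 0.24) and Zup1 (0.82 ± 0.22) passed the test (limma adjusted p = 0.0491 and 0.0456).

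Smg9, the gene of the SMG1 kinase partner, had levels of 6.70, 6.32 and 6.84 in WT, against 6.96, 7.18 and 7.29 in SRSF3HKO. The groups did not overlap, though the gap between WT replicate 3 and SRSF3HKO replicate 1 was small beside the spread within the groups. The change was 0.53 ± 0.21, or 1.44-fold, with a 95% confidence interval of 0.05 to 1.01 and a limma adjusted p of 0.139. Pearson's r between the levels of Smg9 and Smg6 over the 6 arrays was 0.925, and 4.69% of 11312 tested genes followed Smg6 more closely.

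Upf1, the helicase gene at the centre of the pathway, had levels of 8.40, 7.97 and 8.27 in WT, against 7.59, 8.61 and 7.82 in SRSF3HKO. SRSF3HKO replicate 2 lay above all WT arrays and SRSF3HKO replicates 1 and 3 lay below them. The change was -0.21 ± 0.29, with a 95% confidence interval of -0.87 to 0.45 and a limma adjusted p of 0.680, so falls and rises of moderate size both remain within the interval. The SD within SRSF3HKO was 0.53, against 0.22 in WT, 0.22 for Smg6 in SRSF3HKO and 0.17 for Smg9 in SRSF3HKO. Without SRSF3HKO replicate 2 the change was -0.51 (limma adjusted p = 0.119), and without SRSF3HKO replicate 1 it was 0.00. Pearson's r with Smg6 was 0.187 over the 6 arrays.

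The difference between decay genes within each array takes out what is common to an array. Smg6 minus Upf1 was -1.30, -1.33 and -1.12 in WT, against -0.14, -0.75 and -0.32 in SRSF3HKO, without overlap and with a shift of 0.85. Smg9 minus Upf1 was -1.70, -1.65 and -1.44 in WT, against -0.63, -1.43 and -0.53 in SRSF3HKO, a shift of 0.73 in which SRSF3HKO replicate 2 came close to WT replicate 3. Smg9 minus Smg6 shifted by -0.11 with overlapping groups. The exact permutation p (two-sided) was 0.10, 0.10 and 0.60 for the 3 pairs, and 0.15, 0.15 and 0.60 after Benjamini-Hochberg adjustment over them, where 0.10 is the smallest p that 3 against 3 arrays can give. These pairs were compared after the gene levels had been seen.

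For reference, the 250 bases before the transcription start of the 3 genes are shown, and a link between them and the array levels was not tested. These sequences are from RefSeq, build GRCm38.p6, 5′ to 3′ on the strand of the gene, and all 3 genes matched by symbol. The regions are chr8:70353280-70353529 on the minus strand for Upf1, chr11:74925604-74925853 on the plus strand for Smg6 and chr7:24399378-24399627 on the plus strand for Smg9. Capitals mark matches to any of 6 motifs searched on both strands, which were TGACGTCA (CRE), CCGGAAGT (ETS), GCATGCGC (NRF1), GGGCGG (SP1), CCAAT (NFY) and AAGATGGCG (YY1).
Upf1: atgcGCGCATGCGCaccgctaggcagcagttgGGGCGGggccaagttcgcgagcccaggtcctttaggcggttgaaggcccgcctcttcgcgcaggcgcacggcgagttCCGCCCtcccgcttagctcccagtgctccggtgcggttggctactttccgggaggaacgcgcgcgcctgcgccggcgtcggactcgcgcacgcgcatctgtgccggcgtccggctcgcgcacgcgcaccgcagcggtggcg
Smg6: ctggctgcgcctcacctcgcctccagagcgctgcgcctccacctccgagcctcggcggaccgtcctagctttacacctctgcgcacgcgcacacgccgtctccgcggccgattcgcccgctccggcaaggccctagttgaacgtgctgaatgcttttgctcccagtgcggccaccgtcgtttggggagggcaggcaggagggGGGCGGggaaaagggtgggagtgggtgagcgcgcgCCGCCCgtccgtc
Smg9: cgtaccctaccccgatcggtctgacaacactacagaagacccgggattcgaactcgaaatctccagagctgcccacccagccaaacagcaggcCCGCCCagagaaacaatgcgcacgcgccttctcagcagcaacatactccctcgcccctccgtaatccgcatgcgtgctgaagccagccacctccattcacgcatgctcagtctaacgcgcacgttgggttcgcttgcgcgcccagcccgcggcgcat
The SP1 letters occurred 2 times in the windows of Upf1 and Smg6 and 1 time in that of Smg9, and 32.7% of 32851 RefSeq windows of the same length hold them. The NRF1 letters occurred in Upf1 alone, as a palindrome read on both strands with overlap, and in 2.26% of all windows. CRE, ETS, NFY and YY1 letters, held by 1.55%, 2.88%, 33.9% and 0.606% of all windows, were not in these 3. The windows had a GC content of 72.8%, 70.4% and 61.6%, against a median of 52.4%, and 41, 30 and 24 CG dinucleotides, against a median of 6. These matches are descriptions of the letters and not binding sites.

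Single probe sets were compared next, because an exon array can show parts of a transcript that the gene level hides. Of the 80 member probe sets 72 were bright enough to test, 29 of Upf1, 27 of Smg6 and 16 of Smg9. Of these, 2 rose and none fell, both of them in Smg6. Over all probe sets tested, 4.73% were called higher and 4.32% lower, so 2 of 72 is no larger a share than the background. At an unadjusted p under 0.05, 18 of the 72 were higher and 1 was lower, against 14.8% higher and 11.1% lower over all probe sets tested. Of those 18, 12 were probe sets of Smg6, which share one gene and the same arrays.

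**Figure D2:**
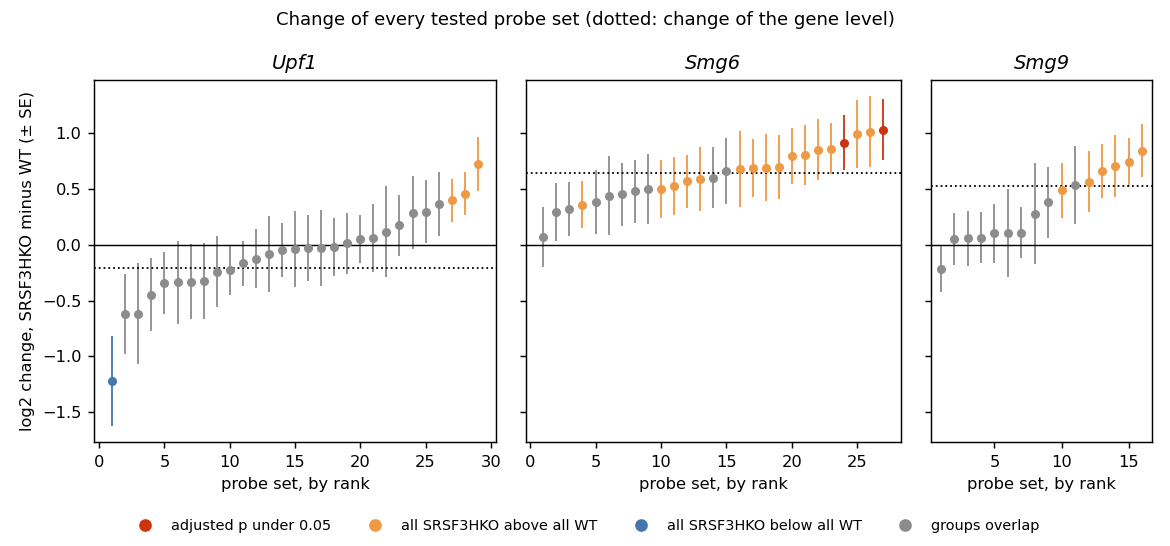
Log2 change of each tested probe set of Upf1 (29), Smg6 (27) and Smg9 (16), SRSF3HKO minus WT with its SE (n = 3 per group), ordered by size within the gene, with the change of the gene level dotted. All 27 Smg6 points lie above 0, those of Upf1 spread from -1.22 to 0.72, and the 2 points with an adjusted p under 0.05 are both in Smg6.

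Smg6 had a positive change in all 27 tested probe sets, from 0.07 to 1.03 with a median of 0.60. The groups did not overlap in 17 of them, all upward, against 18.3% of all probe sets separated upward and 13.5% downward. Probe sets of a gene share their arrays and are not replicates, so these counts describe how evenly the gene level was shared and are not a test. The count of 27 positive changes held under quantile normalization and median centring of the arrays, and became 26 of 27 with the Y-linked covariate and 25 of 26 without SRSF3HKO replicate 1. Probe set 5523398 had intensities of 98.6, 72.4 and 131 in WT, against 203, 272 and 186 in SRSF3HKO, a rise of 1.03 ± 0.27 (limma adjusted p = 0.0474). Probe set 5366472 had intensities of 175, 154 and 157 in WT, against 263, 423 and 293 in SRSF3HKO, a rise of 0.92 ± 0.24 (limma adjusted p = 0.0494). In both the SRSF3HKO arrays were all above the WT arrays, yet both calls sat at the threshold and ended when any 1 of the 6 arrays was left out (limma adjusted p = 0.05002 to 0.152 for 5366472 and 0.0700 to 0.158 for 5523398). The brightest Smg6 probe set, 4544192, had intensities of 378, 283 and 427 in WT, against 679, 759 and 492 in SRSF3HKO (0.80 ± 0.25, limma adjusted p = 0.0846). The dimmest one tested, 5375711, had 22.6, 20.9 and 30.5 against 67.9, 59.8 and 45.4 (limma adjusted p = 0.0848). Probe set 5123522, with the smallest change, had 50.9, 53.6 and 56.6 in WT, against 79.2, 54.6 and 42.1 in SRSF3HKO, where the groups overlapped. The 5 Smg6 probe sets not tested stayed at an intensity of at most 45.6.

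Smg9 had a positive change in 15 of 16 tested probe sets, with a median of 0.33 that was lower than the change of the gene level. The rise was uneven, with a lower quartile of 0.09 and an upper quartile of 0.59, where the median over all genes tested was 0.08. The groups were separated upward in 6 of them, or 37.5%, against the 18.3% over all probe sets tested. The count of positive changes was 14 of 16 with quantile normalization, median centring or array weights, 13 with the Y-linked covariate, and lowest at 12 without WT replicate 3. The highest change was in probe set 4623897, with intensities of 86.0, 63.8 and 100 in WT, against 163, 159 and 157 in SRSF3HKO (0.84 ± 0.24, limma adjusted p = 0.0593). Its brightest probe set, 4413387, went the other way, with 538, 577 and 527 in WT, against 414, 546 and 458 in SRSF3HKO, and here the groups overlapped (-0.21 ± 0.21, limma adjusted p = 0.565). The dimmest one tested, 5239564, had 52.8, 41.8 and 12.7 against 17.6, 73.5 and 51.7, with overlapping groups.

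Upf1 had a positive change in 11 of 29 tested probe sets and a negative one in 18, with a median of -0.04. With quantile normalization or median centring the counts were 9 and 20. The groups were separated upward in 3 of the 29, or 10.3%, and downward in 1. Over all probe sets tested the shares were 18.3% upward and 13.5% downward, so the separations of Upf1 below were no more frequent than the background. Its brightest probe set, 5081229, had intensities of 792, 792 and 874 in WT, against 1155, 1259 and 992 in SRSF3HKO, so every SRSF3HKO array was higher (0.46 ± 0.19, limma adjusted p = 0.174). Probe set 5504607 was also higher on every SRSF3HKO array, with 132, 87.7 and 106 against 167, 177 and 222 (0.72 ± 0.24, limma adjusted p = 0.0994). The dimmest tested probe set, 5517449, was the only one of Upf1 whose SRSF3HKO arrays all lay below WT, with 61.9, 118 and 81.3 in WT, against 20.7, 61.6 and 12.3 in SRSF3HKO. Its change was -1.22 ± 0.40 (limma adjusted p = 0.0950), and its SRSF3HKO mean of 5.43 lay below the floor for probe sets of 5.63. The separation rested on a narrow gap between WT replicate 1 and SRSF3HKO replicate 2.

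**Figure D3:**
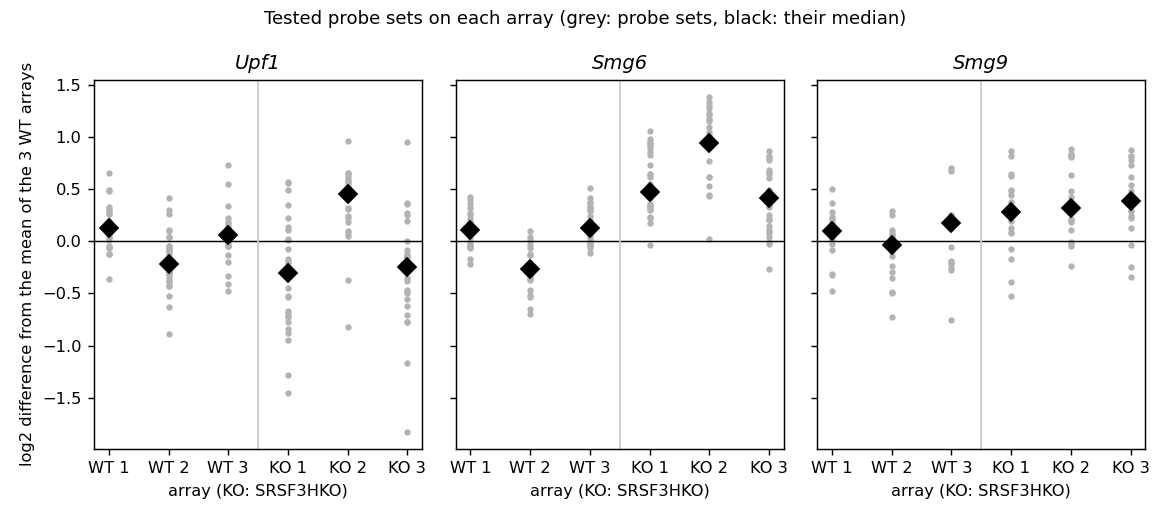
Each tested probe set of Upf1, Smg6 and Smg9 on each array, as its log2 difference from its own mean over the 3 WT arrays (grey), with the median over probe sets in black and KO standing for SRSF3HKO. The median of Upf1 is at 0.45 on SRSF3HKO replicate 2 and at -0.31 and -0.24 on replicates 1 and 3, whereas for Smg6 and Smg9 all 3 SRSF3HKO medians are above 0.

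The spread of Upf1 among SRSF3HKO arrays ran through nearly the whole gene. SRSF3HKO replicate 2 was the highest of the 3 SRSF3HKO arrays in 25 of 29 probe sets of Upf1 and in 22 of 27 of Smg6, but in 5 of 16 of Smg9. WT replicate 2, the array with the lowest median intensity, was the lowest WT array in 50 of the 72 member probe sets. The matching shares over all probe sets are not given here, so these counts cannot be read as a trait of the members. Without WT replicate 2 the gene-level change was smaller, at 0.48 for Smg6 and 0.38 for Smg9 (limma adjusted p = 0.277 and 0.355). Leaving out SRSF3HKO replicate 2, mostly the highest SRSF3HKO array of Upf1, lowers the Upf1 changes by construction. In that fit 23 of the 29 Upf1 probe sets had a negative change, and in 13 the remaining SRSF3HKO arrays all lay below WT. Over all probe sets, not chosen for a high SRSF3HKO replicate 2, these shares were 47.4% and 21.2%, so the comparison is not a test. The share of 21.2% is higher than with 3 arrays in each group. Without SRSF3HKO replicate 1 the changes were positive in 18, and without SRSF3HKO replicate 3 they were positive in 15 and negative in 14. Probe sets 5044346 and 5517449 were called lower without SRSF3HKO replicate 2 (limma adjusted p = 0.0328 and 0.0170), as were 6.33% of all probe sets.

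Exon usage compares how a probe set moved with how the rest of its gene moved. None of the 72 member probe sets changed in usage by limma's diffSplice, against 0.662% of the 142800 probe sets in that test, while 4 of the 72 had an unadjusted p under 0.05, against 6.73% of those probe sets, and the per-array splicing index also called none. For the whole gene the Simes adjusted p of diffSplice was 0.239 for Upf1, 0.994 for Smg6 and 0.931 for Smg9. Upf1 probe set 5517449 had the lowest p, with a usage change of -1.18 (diffSplice adjusted p = 0.113). Its call was made with a pseudocount of 1 (-1.65, adjusted p = 0.0132), with array weights (-1.20, adjusted p = 0.0152) and without SRSF3HKO replicate 2 (-1.38, adjusted p = 0.00410). Without SRSF3HKO replicate 2 the usage of 5504607 was also called, 1.10 higher (diffSplice adjusted p = 0.0392). The position of these probe sets in the gene was not analysed here.

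The other genes of the decay pathway were taken from lists of known factors, with 66 of 77 listed genes tested. In them 11 genes rose and 2 fell, where 6.85% of all genes tested rose and 5.03% fell. The count of 13 was 2, 2 and 3 without WT replicates 1, 2 and 3, 8, 22 and 7 without SRSF3HKO replicates 1, 2 and 3, and 5 when Y-linked signal entered the fit as a covariate. Changes are read beside the median over all genes tested of 0.08, and most of the calls fell in the list of decay substrates.

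**Figure D4:**
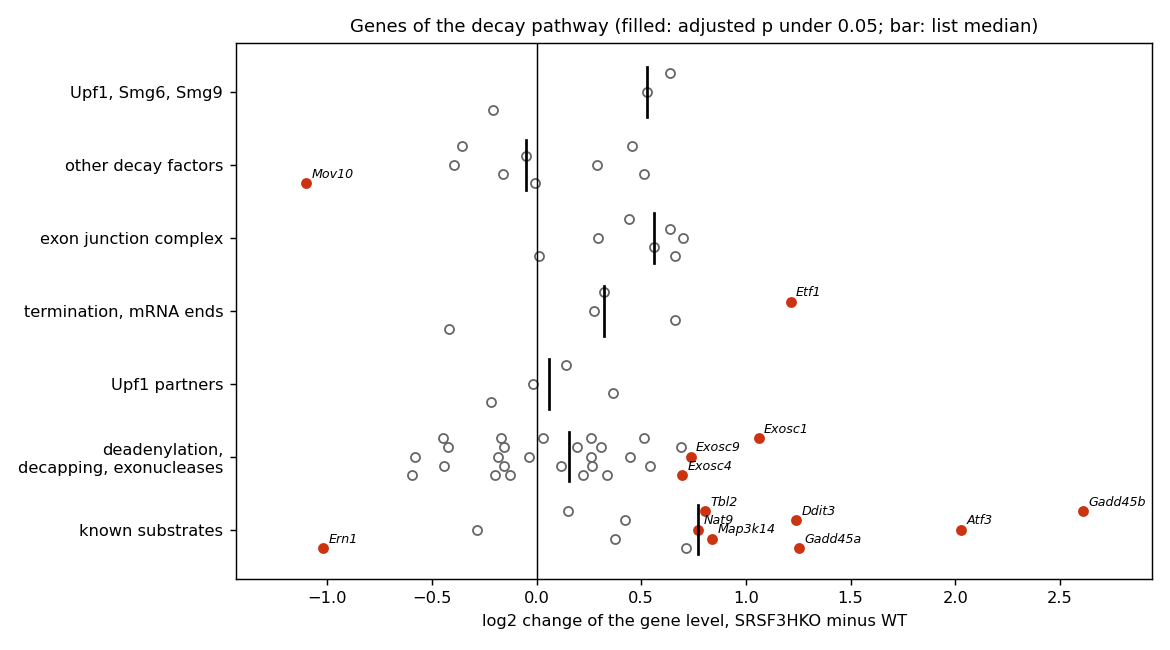
Log2 change of the gene level, SRSF3HKO minus WT, of each tested gene of the decay pathway by list, with genes at an adjusted p under 0.05 filled and named and the list median as a bar. The exon junction genes lie at or above 0 with none filled (5 or 6 of 7 above 0 under some other settings), whereas 8 of the 13 known substrates are filled, 7 of them to the right.

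Of the other decay factors 1 of 9 fell and none rose, with a median of -0.05. It was Mov10, an RNA helicase that works with UPF1, with levels of 8.21, 8.03 and 8.20 in WT, against 7.54, 6.68 and 6.91 in SRSF3HKO, all below WT (-1.10 ± 0.25, limma adjusted p = 0.0287). The call ended when the Y-linked covariate was added (adjusted p = 0.0626), without WT replicate 1, 2 or 3 (0.118, 0.0952 and 0.106) and without SRSF3HKO replicate 3 (0.0703). Smg8, which forms a complex with SMG9 and SMG1, had a change of -0.01 ± 0.20 (limma adjusted p = 0.989).

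In the exon junction complex, which marks spliced junctions for the pathway, none of 7 tested genes passed the limma test, while 4 had an unadjusted p under 0.05 and a positive change, against 17.6% of all genes tested. All 7 had a positive change, with a median of 0.56, and 4 were separated upward, against 21.6% of all genes. The positive changes were 5 of 7 with median polish, and 6 of 7 with quantile normalization, median centring, array weights, the Y-linked covariate or the mean over probe sets, and without WT replicate 2 or SRSF3HKO replicate 1. The core gene Rbm8a had levels of 8.50, 8.58 and 8.58 in WT, against 9.37, 8.97 and 9.31 in SRSF3HKO, all above WT (0.66 ± 0.19, limma adjusted p = 0.0587). The peripheral gene Rnps1 had 8.18, 7.88 and 8.17 against 8.96, 8.89 and 8.47 (0.70 ± 0.21, limma adjusted p = 0.0691). Of the 7, 2 were called higher without SRSF3HKO replicate 2 or with array weights, and 1 with the filter at the median, the mean over probe sets or median polish. Rbm8a, Rnps1 and Smg8 were named after their values were seen.

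Among 5 tested genes of translation termination and mRNA ends, Etf1 rose and none fell. Etf1, which codes for the release factor eRF1 that contacts UPF1, had levels of 9.41, 9.13 and 9.41 in WT, against 10.48, 10.83 and 10.28 in SRSF3HKO. All SRSF3HKO arrays were higher, and the change was 1.21 ± 0.21 (limma adjusted p = 0.0115). Leaving out WT replicate 1 or 2 ended the call (limma adjusted p = 0.0598 and 0.0660). Its partner Gspt1, named after its values were seen, was lower on every SRSF3HKO array but missed the threshold (-0.42 ± 0.17, limma adjusted p = 0.154), and separation downward was seen for 14% of all genes tested. Of the 4 UPF1 partners in other decay pathways none was called by limma and none had an unadjusted p under 0.05, with changes from -0.22 to 0.37.

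Of 28 genes for deadenylation, decapping and exonucleases 3 rose and none fell, with a median of 0.16, where 6.85% of all genes tested rose. The 3 were subunits of the RNA exosome, which degrades RNA from its 3′ end. The other exosome genes tested were not called. Exosc2, Exosc3, Exosc8 and Exosc10 had changes of 0.45, 0.31, 0.26 and 0.26, while those of Exosc5, Exosc7 and Dis3 were negative (-0.17, -0.16 and -0.13). Exosc1 had levels of 8.91, 8.56 and 8.86 in WT, against 9.95, 9.61 and 9.95 in SRSF3HKO (1.06 ± 0.20, limma adjusted p = 0.0160). Exosc4 (0.70 ± 0.18) and Exosc9 (0.74 ± 0.20) passed more narrowly (limma adjusted p = 0.0413 and 0.0470). Exosc1, Exosc4 and Exosc9 were separated from WT upward, as were 21.6% of all genes tested. The calls of these 3 genes ended without any 1 of the WT arrays (limma adjusted p = 0.0621 to 0.0784 for Exosc1, 0.109 to 0.155 for Exosc4 and 0.107 to 0.174 for Exosc9), and those of Exosc4 and Exosc9 also when SRSF3HKO replicate 1 or 3 was left out (0.0845 and 0.0712 for Exosc4, 0.100 and 0.105 for Exosc9). Adding the Y-linked covariate gave 0.0979 and 0.0790, and testing without the detection floor 0.0540 and 0.0624. The Exosc4 call also ended with the mean over probe sets (0.0529) and median polish (0.0676), and that of Exosc9 with quantile normalization (0.0617), median centring (0.0574) and the median over detected probe sets (0.0610). With quantile normalization or median centring the list held 2 genes called higher and 1 lower. The exonuclease gene Xrn1, named after its value was seen, had a change of 0.12 ± 0.23 (limma adjusted p = 0.776).

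Transcripts known as substrates of the pathway had the largest share of called genes among these lists, with 7 of 13 higher and 1 lower, or 61.5% called. Over all genes tested 6.85% were called higher and 5.03% lower, or 11.9% in either direction. The list was chosen with earlier results of these data known, so its share is a description and not a test. The median change of the 13 genes was 0.77. The counts were 3 higher and none lower with the Y-linked covariate, 5 and none without SRSF3HKO replicate 1 or 3, 6 and none with no filter, and 7 and none with the mean over probe sets or median polish, while quantile normalization and median centring left them at 7 and 1. The stress genes Gadd45b and Atf3 moved most. Gadd45b, a growth arrest gene, had levels of 5.71, 5.53 and 6.15 in WT, against 8.70, 8.71 and 7.80 in SRSF3HKO (2.61 ± 0.30, limma adjusted p = 0.00254). Atf3, a stress-induced transcription factor gene, had 6.10, 5.93 and 5.81 against 7.64, 7.84 and 8.44 (2.03 ± 0.24, limma adjusted p = 0.00313). Both calls held without each array in turn. Ddit3, which codes for the stress factor CHOP, rose by 1.24 ± 0.24 and Gadd45a by 1.26 ± 0.26 (limma adjusted p = 0.0172 and 0.0216). The Ddit3 call ended without WT replicate 1, 2 or 3 (0.0849, 0.0736 and 0.0733), and that of Gadd45a without those arrays (0.0849, 0.0957 and 0.0610), when SRSF3HKO replicate 3 was left out (0.0558) and when the Y-linked covariate was added (0.0588). As background, these 4 genes are also known to be induced by cell stress.

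The other called substrates and Gas5 were named after their values were seen. Tbl2 (0.80 ± 0.18), Map3k14 (0.84 ± 0.18), which codes for the NF-kappa-B inducing kinase, and Nat9 (0.77 ± 0.19) rose, and the stress sensor kinase gene Ern1 fell by 1.02 ± 0.27 (limma adjusted p = 0.0262, 0.0256, 0.0381 and 0.0457). Tbl2 had levels of 7.84, 7.83 and 7.75 in WT, against 8.61, 8.72 and 8.51 in SRSF3HKO, a gap several times the spread within the groups. Gas5, a noncoding transcript with a short reading frame and a long-standing example of a substrate, had 9.77, 9.70 and 10.11 against 10.50, 11.00 and 10.21. All its SRSF3HKO arrays were above WT, but it missed the threshold (0.71 ± 0.24, limma adjusted p = 0.0954). Without WT replicates 1, 2 or 3 the list held 2 genes called higher and none lower. Those 2 were Gadd45b and Atf3 each time, so the calls of Tbl2, Map3k14, Nat9 and Ern1 ended when any 1 WT array was left out.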

How the data were processed

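Liver RNA of 3 WT and 3 SRSF3HKO samples was hybridised to exon arrays. The deposited intensity values are on a linear scale and were made by the authors with PLIER from core exons, per the labels, with Affymetrix Expression Console also named in the submitters' processing notes. Versions and the background step are not given in the sources used here. Genotype came from the labels, and replicate numbers follow sample order. Each probe set took its gene from the platform annotation (208397 with 1 gene, 3965 with several, 17219 with none), and 2121 genes were updated to their current symbol through the table of RefSeq synonyms for GRCm38.p6.

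Values were transformed as log2(intensity + 16). A gene or probe set entered the test if its mean lay above a detection floor, the 90th percentile over 1046 sensory receptor genes, which was a value of 5.35 for genes and 5.63 for probe sets, which left 11711 genes and 157764 probe sets. limma 3.58.1 in R 4.3.3 compared SRSF3HKO with WT (eBayes with trend, Benjamini-Hochberg, adjusted p under 0.05), and its diffSplice tested usage in the 12252 genes that had 3 or more probe sets above the floor. The number of arrays, 3 per group, limits the precision, and a p-value covers the spread among these samples alone, which may be technical. The code was tested on simulated data. Alternatives covered the pseudocount, normalization, filter, gene summary, moderation, array weights, threshold, Y-linked covariate and each array left out. Marker sums are of linear intensity.

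The members and lists were chosen with earlier results of these data known. Named genes are the 3 members with probe sets, up to 4 called genes per list with the lowest adjusted p, Srsf3, and the 5 genes most like the member with the lowest p. Named probe sets are those called, and the brightest, dimmest, highest and lowest of each gene. Others were named after their values were seen.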

Additional observations from a re-analysis of the deposited data

How the results depend on the processing

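No member gene was called under any of the 20 alternatives run at gene level, and the members' median change stayed between 0.32 and 0.64. Smg6 ranged from 0.48 to 0.73 (limma adjusted p = 0.0773 to 0.277) and Smg9 from 0.32 to 0.64 (limma adjusted p = 0.106 to 0.355). The Upf1 change of -0.21 turned to 0.009 with median polish and to 0.002 without SRSF3HKO replicate 1, and was -0.507 at the lowest, without SRSF3HKO replicate 2. The 2 member probe sets called became 1 with a pseudocount of 1 or 64, quantile normalization or median centring, 5 with array weights, and 0 with no filter, eBayes without trend, an adjusted p under 0.01 or the Y-linked covariate, and 0 to 2 when each array was left out. The probe sets called were not always those of Smg6. With array weights they included Upf1 5517449, lower, and Smg9 4623897, higher. The 2 called without SRSF3HKO replicate 2 were Upf1 5044346 and 5517449, both lower. The 0 probe sets with changed usage became 1 with a pseudocount of 1 or array weights, and 0 to 2 when each array was left out. The 13 other pathway genes called became 2 at an adjusted p under 0.01, 5 with the Y-linked covariate, and 2 to 22 when each array was left out. Over all genes the 1391 calls became 244, 274 or 434 with WT replicate 1, 2 or 3 left out, 2155 without SRSF3HKO replicate 2, 618 with the Y-linked covariate, 2157 with array weights and 296 at an adjusted p under 0.01. Apart from the changes that these settings make by construction (fewer arrays, fewer residual degrees of freedom, a stricter threshold), the cause was not tested. Within the arrays with Y-linked signal (2 WT, 1 SRSF3HKO) the changes were -0.36 for Upf1, 0.63 for Smg6 and 0.78 for Smg9, and within those without it (1 WT, 2 SRSF3HKO) they were -0.17, 0.50 and 0.23. Usage was not fitted without trend, since diffSplice fits none. The filter at the median and robust eBayes left the call counts within 1.5 times. No scan date or batch is given in the sources used here.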
